A study of Mus musculus with 8 samples.

Results

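Fragments of the glycine tRNAs other than tRNA Gly(GCC) were examined in pancreatic β-cells of diabetic and control mice. They were all sequences of the tRNA-derived fragment (tRF) table whose name held glycine but not the anticodon GCC, which gave 166 of 2226 sequences under 3 of 48 names. Of these, 57 were named Gly-ACC, 56 Gly-CCC and 53 Gly-TCC, and 43 further glycine sequences were named Gly-GCC. The β-cells were sorted by FACS from the islets of male mice at 8 weeks of age. Of the small RNA libraries, 4 were from db/db mice (BKS.Cg-Dock7m+/+LeprdbJ), which carry a leptin receptor mutation in every tissue and become obese and hyperglycemic. The other 4 were from lean wild type mice (BKS.Cg-Dock7m+/+). Islets of several mice were pooled for each preparation, so a library is a pool and not an animal. The table held no mRNA, so the labelled cell type could not be checked against β-cell markers. In bulk RNA, fewer cells of a type and less RNA per cell cannot be told apart.

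Glycine tRNAs carry glycine to the ribosome and differ in the anticodon, which reads the glycine codons. In the folded tRNA the first bases pair with bases near the 3′ end to form the acceptor stem, and the bases CCA are added after transcription at the 3′ end, where the amino acid is attached. Cleavage in the D loop, the anticodon loop or the T loop releases 5′, internal and 3′ fragments, and a fragment that ends in CCA comes from a tRNA to which CCA had been added.

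The ends of the tRNAs show what each name covered. The longest 3′ fragment of each kind is given with the 8 bases before CCA in capitals, and the longest 5′ fragment with its first 7 bases in capitals, since these bases meet in the acceptor stem.
Gly-ACC 3′: tccccggttcgaaaccgggCGGAAACAcca
Gly-ACC 5′: GTTTCCGtagtgtagtggtt
Gly-CCC 3′, own-stem form: acccgggttcgattcccggGCGGCGCAcca
Gly-CCC 3′, shared form: cccgggttcgattcccggCCAATGCAcca
Gly-CCC 5′: GCGCCGCtggtgtagtggtatcatgcaaga
Gly-TCC 3′: acccgggttcgattcccggCCAACGCAcca
Gly-TCC 5′: GCGTTGGtggtatagtggtgagcatagctg

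The first 7 bases of each 5′ fragment were the reverse complement of the first 7 capitals of a 3′ fragment of the same name. The exception was the shared form of Gly-CCC, whose end did not pair with the Gly-CCC 5′ start. All 14 sequences of the shared form, of 16 to 29 nt, were contained in a sequence of 30 nt that was listed under Gly-GCC, shown here with the same 8 bases in capitals.
Gly-GCC, 30 nt: gcccgggttcgattcccggCCAATGCAcca

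The other 15 Gly-GCC 3′ sequences had a different end. The 5′ start that does pair with the shared form was also listed under Gly-GCC, as 5 sequences. The 15 own-stem sequences of 16 to 30 nt were contained in no sequence of another name. The shared and own-stem forms are therefore described apart, a division that was made after their values had been seen and that carries no test of its own.

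The name Gly-ACC overlapped with a valine tRNA. All 5 Gly-ACC 5′ fragments, of 16 to 20 nt, were contained in longer sequences listed under Val-AAC. The ladder of lengths stopped at 20 nt under the glycine name and went on from 22 to 30 nt under Val-AAC, with 13 sequences that began with the same 20 bases, in capitals here in the most abundant of them.
Val-AAC, 23 nt: GTTTCCGTAGTGTAGTGGTTatc

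In total 22 members were contained in sequences of other names, 7 of Gly-ACC, 15 of Gly-CCC and 0 of Gly-TCC. Containment finds only longer sequences listed under another name, and each sequence carries only its listed name. The count therefore cannot show which other members are shared. The Gly-ACC 3′ end pairs with the 5′ start that Val-AAC sequences also have. Gly-ACC 3′ fragments, complete or short of CCA, therefore cannot be assigned to glycine alone, and their sharing with valine tRNAs was not tested. Overlapping members could be joined into stretches from either end of the tRNA, and all 166 had a place in them. The Gly-ACC stretches covered the first 20 and the last 38 bases, and the Gly-CCC stretches the first 30 and the last 30. With the gene lengths of RefSeq (74 and 71 bases) and the added CCA, neither reached the anticodon at bases 34 to 36, so no fragment of either name carried the anticodon it was named for. For Gly-TCC the stretch from the 5′ end was 44 bases long and had TCC at bases 34 to 36. It rested on 6 internal sequences of 26 to 30 nt that spanned the anticodon, of which the most abundant is shown with the anticodon in capitals.
Gly-TCC, 27 nt: gtgagcatagctgcctTCCaagcagtt

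In the RefSeq annotation of GRCm38.p6, the build to which the authors aligned, Gly-ACC has 1 gene (n-TGacc1, chromosome 11, 48823728 to 48823801), between genes for Val-CAC (n-TVcac7, 48818542 to 48818614) and Val-AAC (n-TVaac7, 48856637 to 48856709). Gly-CCC has 6 genes, on chromosomes 3, 4, 6 and 17, Gly-TCC has 7, on chromosomes 1, 3 and 11, and Gly-GCC has 14. A fragment cannot be assigned to a single gene copy.

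The libraries held between 582165 and 2946290 tRF counts, of which 30476 to 203040 were members. All 12 pairs of libraries of the same genotype differed beyond counting error. The members together made up 7.51, 8.09, 6.85 and 6.02% of tRF counts in the wild type libraries numbered 1, 2, 3 and 4. The db/db libraries 1, 2, 3 and 4, whose numbers pair with no wild type library, had 8.59, 5.23, 6.89 and 6.07%. The genotypes overlapped, with means of 7.12% ± 0.893 and 6.69% ± 1.43 (SD, n = 4 each).

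Neither Gly-ACC, Gly-CCC nor Gly-TCC totals differed between db/db and wild type β-cells beyond the spread of the libraries. Gly-ACC was the 6th most abundant of the 48 names and took up 3.11, 4.24, 3.08 and 2.77% of tRF counts in wild type and 4.77, 2.21, 3.51 and 3.02% in db/db libraries. Its rank and share follow the listed name and cannot be assigned to glycine tRNAs alone. Gly-CCC, the 8th, took up 4.10, 3.13, 3.41 and 2.70% in wild type and 3.11, 2.61, 3.01 and 2.47% in db/db. Gly-TCC, the 28th, lay lower, at 0.295, 0.724, 0.366 and 0.541% in wild type and 0.707, 0.418, 0.373 and 0.579% in db/db.

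For all 3 names the genotypes overlapped, and the db/db libraries 1 and 2 were the highest and the lowest of all 8 for Gly-ACC. By edgeR's quasi-likelihood test on the counts of each name, the log2 fold change of db/db over wild type was -0.056 (SE 0.20, adjusted p = 0.98) for Gly-ACC. It was -0.31 (SE 0.19, adjusted p = 0.40) for Gly-CCC and 0.032 (SE 0.26, adjusted p = 0.98) for Gly-TCC. A call needed an adjusted p below 0.1 and a fold change above 2. None of the 3 totals was called by edgeR or DESeq2, and 0 had an unadjusted p below 0.05, where 2.08% of the 48 totals were called higher and 2.08% lower. The Gly-GCC total, by contrast, was called higher in db/db, at 0.0906% ± 0.0239 of tRF counts in wild type and 0.340% ± 0.156 in db/db (log2 fold change 1.78, SE 0.31, adjusted p = 0.00086), although with library sizes implied by the authors' RPM it was 1.37 (adjusted p = 0.11), with the authors' effective library sizes 1.18 (adjusted p = 0.88), and neither was called.

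**Figure D1:**
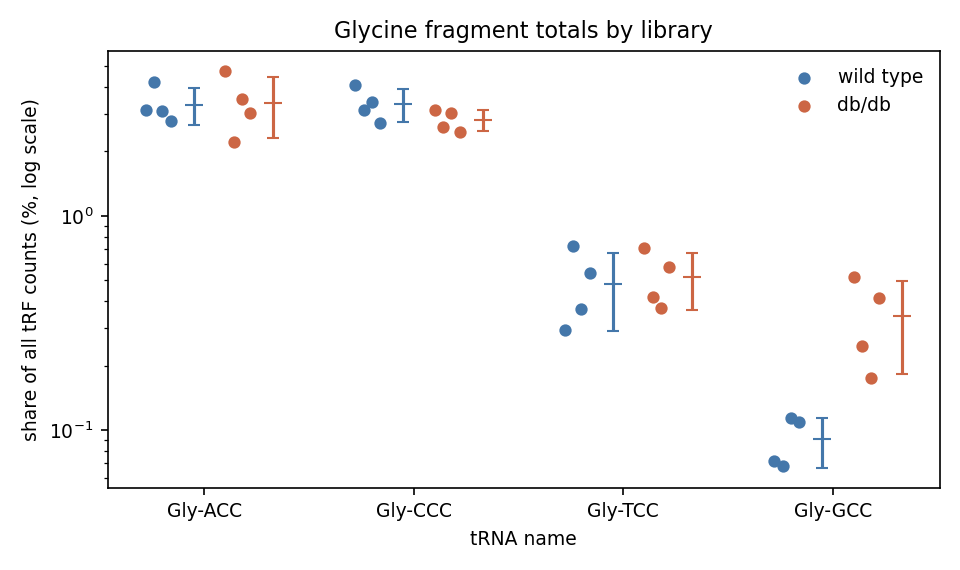
Share of all tRF counts (%, log scale) for each glycine name, with 1 point per library, in blue for wild type and orange for db/db, and the mean and SD of 4 libraries beside the points. The genotypes overlap for Gly-ACC, Gly-CCC and Gly-TCC, and do not overlap for Gly-GCC.

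The totals of the names did not run in parallel across libraries. The Pearson r of log2(CPM + 1) over the 8 libraries was 0.11 between Gly-ACC and Gly-CCC, 0.20 between Gly-ACC and Gly-TCC and -0.76 between Gly-CCC and Gly-TCC. The names most like Gly-ACC were Met-CAT (0.67), Ile-TAT (0.59) and Tyr-GTA (0.57). For Gly-CCC they were Pro-AGG (0.76), Ser-TGA (0.68) and Leu-TAG (0.64), and for Gly-TCC they were Leu-CAA (0.91), Ala-CGC (0.81) and His-GTG (0.81). These values describe 8 libraries that share their scaling factors, with both genotypes pooled.

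Fragments that end in CCA made up most of each name. Of Gly-ACC counts they took 92.4% ± 1.76 in wild type against 94.2% ± 2.18 in db/db. The share was 87.1% ± 3.40 and 90.0% ± 3.23 for Gly-CCC, and 57.9% ± 6.98 and 68.3% ± 12.2 for Gly-TCC. In db/db library 3 it reached 86.2% for Gly-TCC, while the other 7 libraries lay between 49.2 and 65.9%. None of these shares passed the exact permutation test at an adjusted p of 0.05 (0.51 for each of the 3 names, two-sided, adjusted over 14 measures). The count-weighted mean length of Gly-ACC fragments was 21.7 ± 0.328 nt (wild type) against 21.4 ± 0.195 nt (db/db), followed by 21.9 ± 0.512 and 21.6 ± 0.506 nt for Gly-CCC and 23.5 ± 0.654 and 23.2 ± 0.459 nt for Gly-TCC. The exact permutation tests on these lengths gave adjusted p-values of 0.60, 0.64 and 0.64.

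Each kind of 3′ fragment had its own profile of lengths. The most abundant are shown with CCA in capitals, to place their starts.
Gly-ACC 3′, 24 nt: gttcgaaaccgggcggaaacaCCA
Gly-CCC 3′, own-stem form, 27 nt: cgggttcgattcccgggcggcgcaCCA
Gly-TCC 3′, 24 nt: gttcgattcccggccaacgcaCCA

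The Gly-ACC fragment of 24 nt, which starts at the T arm, alone gave 31.8% of Gly-ACC 3′ counts as a mean over the 8 libraries. The fragment of 24 nt was the most abundant in 8 of 8 libraries in Gly-ACC and in Gly-TCC, where its mean was 19.5%. In the shared form of Gly-CCC it had 16.5% and led in 5 libraries, with 16 nt (14.6%) ahead in 2 and 27 nt (10.7%) in 1. In the own-stem form the fragment of 27 nt (22.2%) led in 4 libraries and that of 16 nt (18.5%) in the other 4, followed by 18 nt (11.4%), 17 nt (11.4%) and 24 nt (10.1%). The genotypes are given side by side: at 24 nt, Gly-ACC had 32.8% ± 3.04 (wild type) and 30.9% ± 2.54 (db/db), and Gly-TCC 19.3% ± 3.62 and 19.6% ± 2.90. Differences in length profile were given as values and were not tested.

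**Figure D2:**
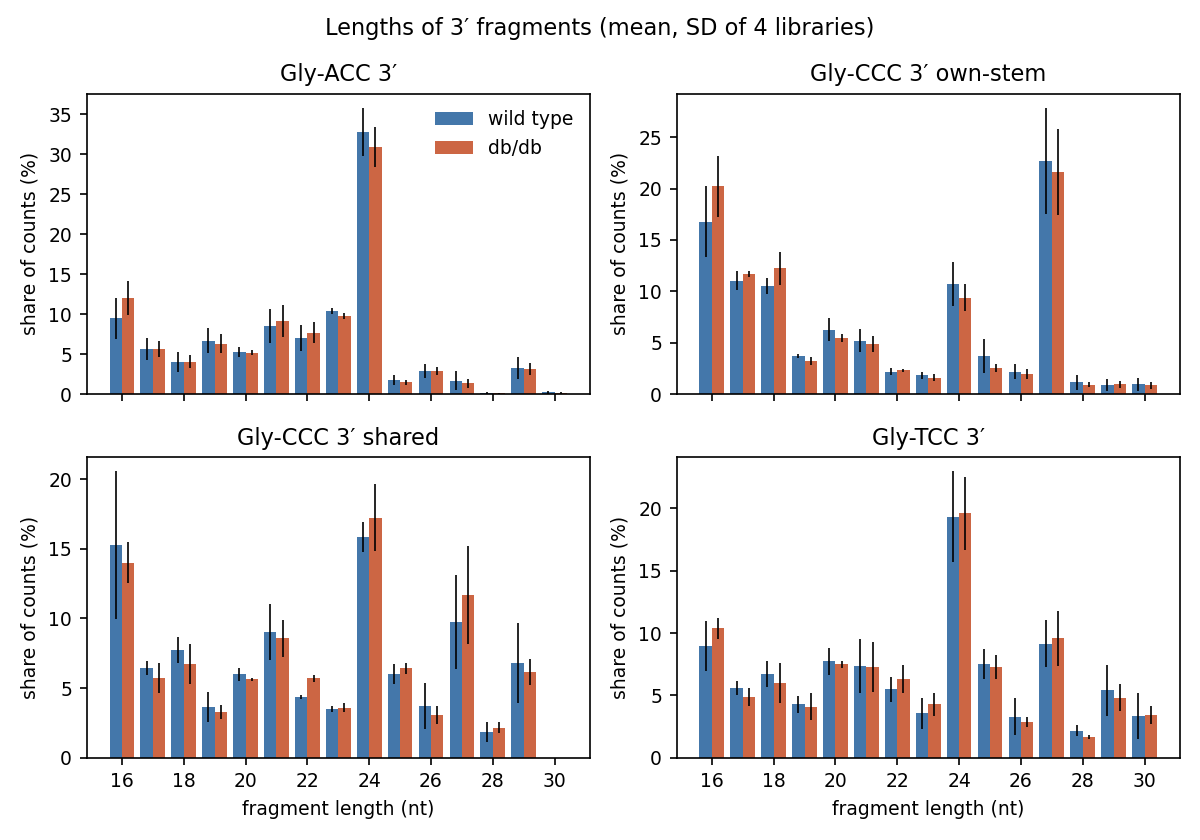
Share of the 3′ fragment counts (%) at each length (nt) in wild type (blue) and db/db (orange), as means of 4 libraries with SD, for Gly-ACC, both forms of Gly-CCC and Gly-TCC. By the mean, 24 nt is highest in Gly-ACC, Gly-TCC and the shared form and 27 nt in the own-stem form, while single libraries of both Gly-CCC forms differ in which length is highest.

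The most abundant single member was the Gly-ACC fragment of 24 nt. Its level, in tRF counts scaled by TMM to a common library size (CPM), was 13492, 11243, 8725 and 8354 in wild type and 11654, 6223, 13506 and 6808 in db/db libraries. The genotypes overlapped over nearly the same range, with a log2 fold change of -0.13 (SE 0.35, adjusted p = 0.86, edgeR). The 5 most abundant Gly-ACC sequences, all 3′ fragments (24, 16, 23, 21 and 22 nt), made up 56.5 to 74.3% of Gly-ACC counts in a library. Their log2 fold changes lay between -0.17 and 0.28, and none was called.

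The 5 most abundant Gly-CCC sequences were 3′ fragments of the own-stem form (27, 16, 17, 18 and 24 nt), with 40.5 to 58.7% of Gly-CCC counts. The fragment of 27 nt had 7240, 5334, 5112 and 5403 CPM in wild type and 2574, 4536, 4726 and 3169 CPM in db/db. All 4 db/db libraries lay below all 4 wild type libraries, but at a log2 fold change of -0.62 (SE 0.33, adjusted p = 0.29) it was not called. For the other 4 sequences the genotypes overlapped, with log2 fold changes of -0.31 to -0.79. Leaving out 1 library moved these values to between -0.70 and 0.16 (16 nt), -0.77 and -0.13 (17 nt), -0.65 and -0.029 (18 nt) and -1.12 and -0.22 (24 nt). The 24 nt fragment was called lower without db/db library 3 (-1.12, adjusted p = 0.076, edgeR).

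Of Gly-TCC, the 5 most abundant sequences were the 3′ fragments of 24, 16, 27 and 20 nt and the 5′ fragment of 26 nt, with 31.4 to 44.6% of its counts. The 24 nt fragment had 585, 606, 388 and 532 CPM in wild type and 566, 590, 915 and 523 CPM in db/db (log2 fold change 0.30, SE 0.33, adjusted p = 0.66). The 5′ fragment of 26 nt, gcgttggtggtatagtggtgagcata, had 226, 487, 371 and 457 CPM in wild type and 351, 325, 86.9 and 360 CPM in db/db (-0.46, SE 0.40, adjusted p = 0.56). Both overlapped between the genotypes, and the low value of the 5′ fragment in db/db library 3 stood apart from the rest of its group.

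Families, the sums of counts over a name and a class, gave 0 of 9 member families called by edgeR or DESeq2, with 2 at an unadjusted p below 0.05. Of all 110 families, 3.64% were called higher and 13.6% lower. The first of the pair was the internal family of Gly-ACC, with 1273, 2058, 1699 and 1185 CPM in wild type and 725, 766, 799 and 917 CPM in db/db. These groups did not overlap, but its log2 fold change of -0.95 (SE 0.30, adjusted p = 0.025) fell short of the fold limit. The second was the internal family of Gly-CCC, with 356, 260, 324 and 239 CPM in wild type and 136, 137, 220 and 203 CPM in db/db. It did not overlap either, at -0.75 (SE 0.29, adjusted p = 0.084). CPM of families and of sequences rest on scaling factors of their own and compare only within a level.

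The other member families all overlapped between the genotypes. The Gly-ACC 3′ family was close to 29445 ± 768 CPM in wild type and spread from 22767 to 45119 CPM in db/db, with a log2 fold change of 0.14 (SE 0.28). The Gly-CCC 3′ family had -0.12 (SE 0.29) and the Gly-TCC 3′ family 0.40 (SE 0.31). Among 5′ families the log2 fold changes were 0.21 (SE 0.31) for Gly-ACC, -0.60 (SE 0.35) for Gly-CCC and -0.23 (SE 0.42) for Gly-TCC, and the Gly-TCC internal family had -0.28 (SE 0.28). The lowest adjusted p-value of these 7 families in edgeR was 0.299. The Gly-GCC 3′ family (2.27, SE 0.35, adjusted p = 2.6e-05) and 5′ family (1.85, SE 0.38, adjusted p = 0.00088) were called higher, and its internal family was not (0.24, SE 0.30). With the authors' effective library sizes the call of the Gly-GCC 5′ family was lost (1.20, adjusted p = 0.19, edgeR).

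Single sequences were called within names whose totals were not. Of the 166 members, 139 passed the filter on low counts, 47 of Gly-ACC, 49 of Gly-CCC and 43 of Gly-TCC. Among these, 2 were called higher in db/db and 17 lower, where 5.57% of all 1832 tested sequences were called higher and 9.44% lower. In 4 of the tested members all db/db libraries lay above all wild type libraries and in 22 all lay below, where the shares over all tested sequences were 6.99% and 10.2%. The median log2 fold change of the tested members was -0.36, and that of all tested sequences 0.0017. Of the 32 tested Gly-GCC sequences, edgeR called 23 higher and none lower (median 1.88).

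**Figure D3:**
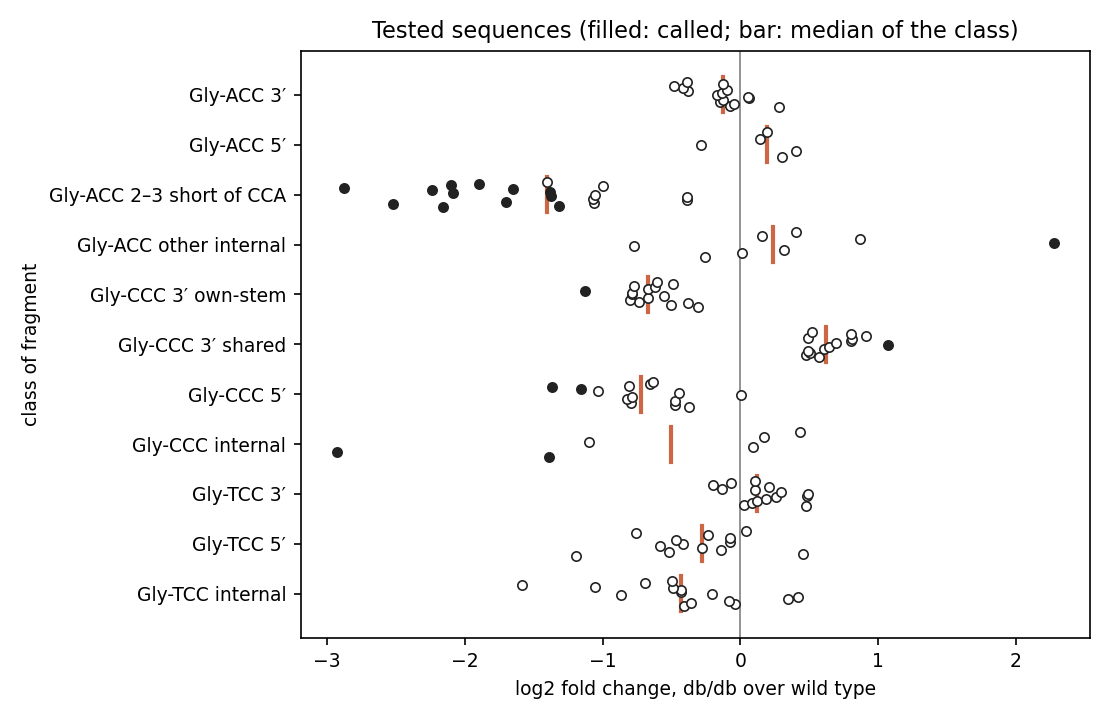
Log2 fold change of db/db over wild type (horizontal axis) for the 139 tested members, by name and class (vertical axis), with called sequences filled and the median of each class as an orange bar. Called sequences gather among Gly-ACC fragments that stop 2 or 3 bases short of CCA, and the own-stem and shared 3′ forms of Gly-CCC lie on opposite sides of 0.

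In Gly-ACC the sequences called lower ended shortly before the end of CCA. Gly-ACC had 12 sequences called lower and 1 called higher, all internal by class, and none of its 15 3′ or 5 5′ fragments was called. All 12 stopped 2 or 3 bases before the end of CCA, 8 of the 9 tested that stopped 2 short and 4 of the 10 that stopped 3 short. Their medians were -2.10 and -1.19, and that of the 3′ fragments with complete CCA was -0.13 (0.090 without db/db library 2). Over all names, 168 sequences that stopped 1 to 3 bases short of CCA were tested, and edgeR called 144 of them lower and none higher. Their median was -3.04, against -1.41 for the 19 of Gly-ACC.

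A set of sequences with 1 start and different ends shows the difference, with the last 3 bases in capitals.
Gly-ACC, 24 nt, complete: gttcgaaaccgggcggaaacaCCA
Gly-ACC, 22 nt, 2 short: gttcgaaaccgggcggaaaCAC
Gly-ACC, 21 nt, 3 short: gttcgaaaccgggcggaaACA

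The sequence of 22 nt had 139, 363, 160 and 107 CPM in wild type and 21.3, 63.2, 47.0 and 32.9 CPM in db/db (log2 fold change -2.24, SE 0.44, adjusted p = 0.00071). That of 21 nt had 116, 154, 89.0 and 48.7 CPM in wild type and 37.7, 48.7, 39.9 and 30.2 CPM in db/db (-1.38, SE 0.41, adjusted p = 0.026). The former did not overlap between the genotypes, and for the latter the highest db/db library reached the lowest wild type library, while the complete fragment had the value of -0.13 given above.

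The largest decreases among tested Gly-ACC sequences were those of the fragments of 23 nt (ggttcgaaaccgggcggaaaCAC) and 17 nt (aaaccgggcggaaaCAC), both 2 short. The former had 23.1, 83.9, 20.2 and 26.3 CPM in wild type and 2.90, 5.41, 7.90 and 3.55 CPM in db/db (-2.88, SE 0.61, adjusted p = 0.0013), and the latter 107, 272, 158 and 129 CPM in wild type and 25.1, 34.3, 26.2 and 31.1 CPM in db/db (-2.52, SE 0.40, adjusted p = 8.1e-05). Neither overlapped between the genotypes, and in both wild type library 2 was the highest of all. Without that library the log2 fold change of the 23 nt fragment was -2.15 and that of the 17 nt fragment -2.20, and both were called by edgeR. Of the remaining sequences 2 short, those of 16, 24, 21 and 18 nt had log2 fold changes of -2.16, -2.10, -2.09 and -1.70 with adjusted p-values of 0.00088, 0.0077, 0.00062 and 0.0038. Those of 26 and 22 nt that stopped 3 short had -1.90 and -1.65, with adjusted p-values of 0.0074 and 0.046. Without wild type library 2 or db/db library 4, those of 22 and 21 nt 3 short were not called by edgeR, and the former was also not called without db/db library 1 or 2, and the latter with the authors' effective library sizes. Counts behind the 12 sequences were small, from 11 to 268 per library in wild type and 3 to 113 in db/db.

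Beside the complete fragment with the same start, which shares its library and scaling, each of the 9 tested sequences 2 short and each of the 9 tested sequences 3 short with such a partner had the lower log2 fold change. As a share of itself and its partner, the sequence 2 short was lower in all 4 db/db libraries than in all 4 wild type libraries in 9 of 9 pairs, and the sequence 3 short in 3 of 9. For the pair of 17 and 19 nt this share was 5.91, 9.12, 7.84 and 5.90% in wild type and 0.967, 2.41, 1.34 and 1.88% in db/db. Such pairs were not formed for other names. Over all names, 144 of the 168 tested sequences 1 to 3 short had all db/db CPM below all wild type CPM. Among the 19 of Gly-ACC there were 13. The Gly-ACC pairs share libraries and overlap in sequence and are no independent replicates of the difference.

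The single Gly-ACC increase stopped 4 bases short. It is shown beside the complete fragment with the same start, again with the last 3 bases in capitals.
Gly-ACC, 17 nt, 4 short: cgaaaccgggcggaAAC
Gly-ACC, 21 nt, complete: cgaaaccgggcggaaacaCCA

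The sequence of 17 nt had 17.8, 10.8, 23.5 and 5.41 CPM in wild type and 61.8, 36.1, 84.4 and 84.4 CPM in db/db (log2 fold change 2.28, SE 0.51, adjusted p = 0.0022). All db/db libraries lay above all wild type libraries, and the call was lost with the authors' effective library sizes. The complete fragment of 21 nt was at 0.062 (SE 0.38, adjusted p = 0.95). All 5 tested Gly-ACC sequences 4 short had log2 fold changes above 0, from 0.16 to 2.28, but the other 4 were not called.

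Summed over all lengths, 3.45, 5.75, 4.61 and 3.30% of Gly-ACC 3′-end counts stopped 1 to 3 bases short of CCA in wild type, and 1.09, 2.18, 1.09 and 1.93% in db/db. For Gly-CCC the share was 0.359, 0.396, 0.409 and 0.302% in wild type and 0.0921, 0.0378, 0.0802 and 0.0960% in db/db. In both names all db/db libraries lay below all wild type libraries, and the share in wild type was 2.71 times that in db/db for Gly-ACC and 4.79 times for Gly-CCC. Both exact permutation tests gave the smallest p that 4 against 4 libraries allow (0.0286, two-sided), which became 0.20 after adjustment over 14 measures and did not pass the threshold of 0.05. Gly-TCC had no sequence that stopped 1 to 3 bases short.

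**Figure D4:**
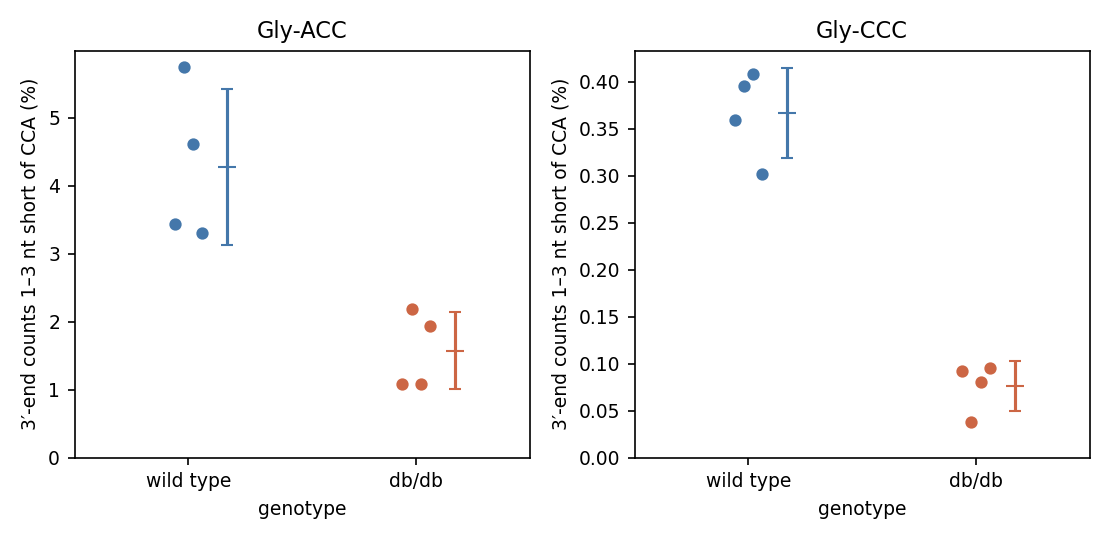
Share of 3′-end counts (%) that stop 1 to 3 bases short of CCA in Gly-ACC (left) and Gly-CCC (right, on its own scale), with 1 point per library and the mean and SD of 4 libraries. The db/db libraries lie below the wild type libraries in both names.

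In Gly-CCC the own-stem and shared 3′ forms differed in direction. All 15 own-stem sequences had log2 fold changes below 0, from -1.13 to -0.31 with a median of -0.67, and 1 was called lower. All 14 sequences of the shared form had log2 fold changes above 0, from 0.47 to 1.07 with a median of 0.62, and 1 was called higher. The sequences within a form overlap, so these counts are not independent. Without wild type library 1 the own-stem median was -0.43. The medians of the 3′ fragments of Gly-TCC and Gly-GCC were 0.12 and 2.15, and that of the 894 tested 3′ fragments of all names 0.053. Of these 894, edgeR called 68 higher and 4 lower.

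The called sequence of each form is shown in lower case throughout, to compare with the ends above.
Gly-CCC 3′, own-stem form, 25 nt: ggttcgattcccgggcggcgcacca
Gly-CCC 3′, shared form, 22 nt: tcgattcccggccaatgcacca

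The own-stem sequence of 25 nt had 1158, 1360, 749 and 567 CPM in wild type and 362, 522, 560 and 311 CPM in db/db (log2 fold change -1.13, SE 0.36, adjusted p = 0.038). The shared sequence of 22 nt had 176, 129, 166 and 239 CPM in wild type and 527, 283, 348 and 337 CPM in db/db (1.07, SE 0.34, adjusted p = 0.039). Neither overlapped between the genotypes, and both lay just beyond the fold limit of 2. The call of the former was lost when any of 5 libraries was left out (wild type 1 or 2, db/db 1, 2 or 4), and that of the latter without wild type 2 or db/db 1. Both calls were also lost with library sizes implied by the authors' RPM, at -1.53 (adjusted p = 0.16, edgeR) and 0.74 (adjusted p = 0.46), and with the authors' effective library sizes, at -1.65 (adjusted p = 0.39) and 0.61 (adjusted p = 0.79).

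Summed, the own-stem form had 40933, 22125, 26130 and 18440 CPM in wild type and 12985, 18812, 28328 and 12217 CPM in db/db, and the shared form 3947, 3089, 3727 and 5525 CPM in wild type and 9008, 5027, 5881 and 6278 CPM in db/db. The genotypes overlapped for both sums. As a share of Gly-CCC 3′ counts, which needs no scaling, the shared form made up 8.79, 12.3, 12.5 and 23.1% in wild type and 41.0, 21.1, 17.2 and 33.9% in db/db, with wild type library 4 above db/db libraries 2 and 3. The 2 tested sequences under Gly-GCC with the 5′ start that pairs with the shared form had log2 fold changes of -0.16 and 0.061 and were not called.

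**Figure D5:**
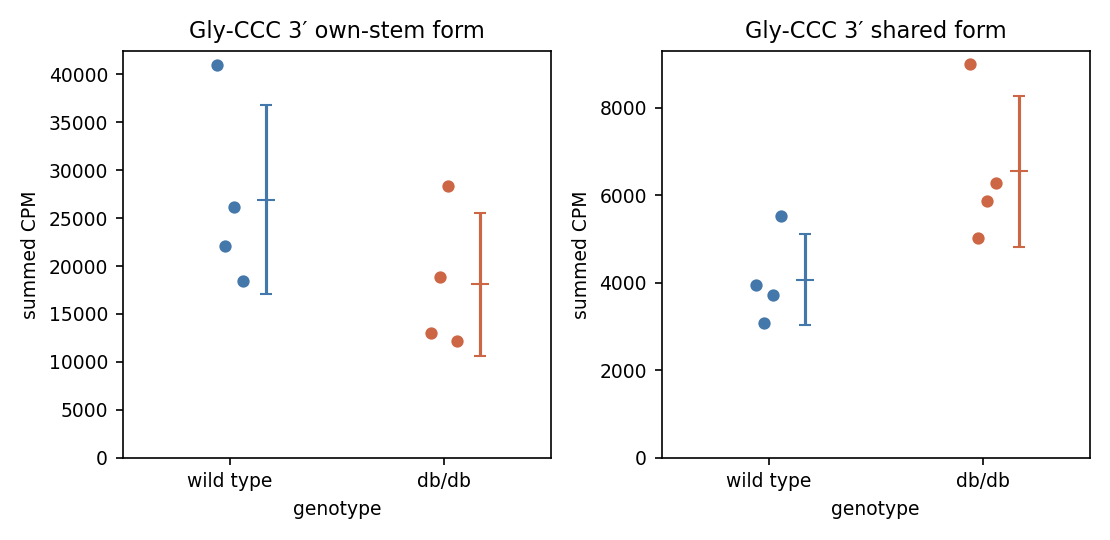
Summed CPM of the Gly-CCC 3′ fragments of the own-stem form (left) and the shared form (right, on its own scale), with 1 point per library and the mean and SD of 4 libraries. The genotypes overlap in both panels, with the mean of db/db below wild type on the left and above it on the right.

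Of the 14 Gly-CCC 5′ fragments, 13 had log2 fold changes below 0 (median -0.72), and those of 26 and 27 nt were called lower. This median was -0.41 without wild type library 3 and -0.94 without wild type library 4. The 268 tested 5′ fragments of all names had a median of -0.19, with 154 below 0, and edgeR called 10 lower and 9 higher. The fragment of 27 nt (gcgccgctggtgtagtggtatcatgca) had 619, 757, 699 and 310 CPM in wild type and 149, 262, 270 and 242 CPM in db/db (-1.37, SE 0.36, adjusted p = 0.0085). That of 26 nt had 228, 131, 200 and 109 CPM in wild type and 57.0, 95.7, 58.2 and 88.8 CPM in db/db (-1.16, SE 0.37, adjusted p = 0.039). Neither overlapped, and the call of the latter was lost when any of 5 libraries was left out (wild type 1 or 3, db/db 1, 3 or 4) or no normalisation factor was used. Both calls were lost with the authors' effective library sizes. The most abundant 5′ lengths, 25 nt (21.7% of Gly-CCC 5′ counts over the 8 libraries) and 30 nt (17.8%), were not called, at -1.03 (adjusted p = 0.17) and -0.64 (adjusted p = 0.46).

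The other called Gly-CCC sequences were internal and began like the 27 nt fragment of the own-stem form. That of 24 nt, 3 short of CCA (cgggttcgattcccgggcggcGCA), had 80.1, 48.7, 53.7 and 30.9 CPM in wild type and 7.73, 3.61, 9.98 and 4.44 CPM in db/db (-2.93, SE 0.53, adjusted p = 0.00027), the largest decrease among the tested members. That of 22 nt, 5 short (cgggttcgattcccgggcgGCG), had 67.6, 44.7, 53.7 and 47.1 CPM in wild type and 13.5, 16.2, 22.5 and 27.5 CPM in db/db (-1.39, SE 0.45, adjusted p = 0.039). Neither overlapped between the genotypes. Counts of the former were 2 to 24 per db/db library, and the call of the latter was lost without wild type 1, db/db 1 or db/db 2, with no normalisation factor and with the authors' effective library sizes.

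Of Gly-TCC, 0 of 43 tested sequences were called by edgeR, with 2 at an unadjusted p below 0.05, and 2 by DESeq2. The medians were 0.12 for 3′, -0.28 for 5′ and -0.43 for internal fragments. Leaving out 1 library moved them to between 0.043 and 0.39 for 3′ (highest without wild type 2), -0.62 and 0.085 for 5′ (above 0 without db/db 3) and -0.53 and -0.21 for internal fragments (nearest to 0 without db/db 3). The sequences that DESeq2 called were those of 27 and 28 nt that span the anticodon. That of 27 nt had 123, 67.7, 87.3 and 81.1 CPM in wild type and 46.4, 66.8, 17.9 and 44.4 CPM in db/db (-1.06, SE 0.43, adjusted p = 0.13 in edgeR and 0.070 in DESeq2). That of 28 nt had 32.0, 24.4, 16.8 and 23.9 CPM in wild type and 17.4, 0, 2.50 and 11.5 CPM in db/db (-1.58, SE 0.67, adjusted p = 0.16 in edgeR and 0.086 in DESeq2). Only the former did not overlap between the genotypes, and the remaining 2 tested sequences across the anticodon had -0.69 and -0.49 and were not called. They are named after their values were seen.

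Of the fragments with a place under another name, 5 of the 7 tested Gly-ACC sequences had log2 fold changes above 0 (median 0.14) and none was called. The 12 tested Val-AAC sequences that continue the Gly-ACC 5′ ladder had a median of -0.29, and 1 of them was called lower. Without the sequences contained in other names, the log2 fold change of the totals was -0.063 for Gly-ACC, -0.54 for Gly-CCC and 0.026 for Gly-TCC, and none was called. The step removed 7568 of 288015 Gly-ACC counts, 47283 of 258097 Gly-CCC counts and 0 Gly-TCC counts. It could therefore change the Gly-ACC and Gly-TCC totals little, and it cannot show whether the remaining sequences are shared.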

How the data were processed

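Small RNA was sequenced from 8 libraries of FACS-sorted β-cells, 4 wild type and 4 db/db, with the QIAseq miRNA kit, whose unique molecular identifiers allow molecules to be counted. The authors collapsed reads with the same sequence and identifier, aligned them to GRCm38.p6 and matched them without mismatches to mature tRNAs. The deposited counts are unnormalised molecules per tRF sequence. The authors' RPM, used as a score, are rounded to whole numbers, and their deposited log2 values are normalised by a method not given in the sources used here. Both served only to derive alternative library sizes. A deposited column of directions of change in words was not used.

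The quasi-likelihood test of edgeR 4.0.16 (R 4.3.3) compared genotypes, with no other term, after TMM scaling of tRF counts and filterByExpr (minimum count 10, minimum total 15). P-values had Benjamini-Hochberg adjustment over all 1832 sequences, 110 families or 48 totals. A call needed an adjusted p below 0.1 and a fold change above 2. Exact permutation tests over 70 assignments compared 14 shares and lengths (scipy). Alternatives were RLE, no factor, totals implied by RPM, the authors' effective library sizes implied by the log2 values, DESeq2 1.42.0, a likelihood-ratio test, other filters, thresholds and class rules, and leaving out each library. P-values measure the spread between pooled preparations.

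A 3′ fragment ended in CCA. A 5′ fragment shared the first 8 bases of the most abundant start of at least 5 sequences of its name, found further inside none of them, and the rest were internal. Ends short of CCA were placed by an overlap of 12 bases with a 3′ fragment of the name, and fragments were joined by overlaps of 10 bases, since mature tRNA sequences were not used here. Named were the 5 most abundant sequences of each name, called sequences (at most 10 in a direction), families, totals and the 3 most similar names. The members, lists and tests were chosen with earlier results of these data known. The procedure was tested on simulated counts.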

Additional observations from a re-analysis of the deposited data

Results flagged for a closer look

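A sample stood far from the other 3 of its group in 6 of 118 groups examined with Dixon's ratio at its usual critical value for 4 samples, and chance gives about 1 in 20. The Gly-TCC 5′ fragment of 26 nt was low in db/db library 3 (86.9 CPM against 325 to 360, ratio 0.872), as was the Gly-GCC internal family (118 CPM against 239 to 256, ratio 0.878). The Gly-ACC 3′ fragment of 16 nt was high in the same library (5804 CPM against 2626 to 3146, ratio 0.836). In wild type, the Gly-CCC 3′ fragment of 27 nt was high in library 1 (7240 CPM against 5112 to 5403, ratio 0.863). The Gly-ACC fragment of 18 nt that stops 2 bases short of CCA was low in library 4 (54.1 CPM against 139 to 152, ratio 0.875), and that of 23 nt was high in library 2 (83.9 CPM against 20.2 to 26.3, ratio 0.904).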

How the results depend on the processing

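Scaling to the implied totals or to the authors' effective library sizes moved the median of all tested sequences to -0.36 and -0.51, and no factor moved it to 0.14, so log2 fold changes near 0 changed sign with the scaling. With no factor, the Gly-ACC total was at 0.033 and its 24 nt fragment at 0.013. With implied totals and effective sizes, respectively, the values were -0.49 and -0.69 for the Gly-TCC total, -0.38 and -0.45 for the Gly-ACC 3′ family, -0.38 and -0.60 for its 5′ family, -0.23 and -0.36 for the Gly-TCC 3′ family, and -0.36 and -0.66 for the Gly-GCC internal family. For single 3′ fragments they were -0.13 and -0.10 (Gly-ACC 21 nt), -0.16 and -0.16 (Gly-ACC 22 nt), -0.046 and -0.10 (Gly-TCC 24 nt), -0.33 and -0.50 (Gly-TCC 27 nt), -0.25 and -0.38 (Gly-TCC 20 nt), and -0.067 with effective sizes for Gly-TCC 16 nt. None of these was called by edgeR with either scaling. The median of the shared Gly-CCC form stayed above that of all sequences by 0.68 and 0.71, and that of the own-stem form below it by 0.57 and 0.45 (differences of medians). For the Gly-TCC 5′ fragments this difference was -0.56 and -0.89, against -0.28 in the reported test.

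With effective sizes 12 members were called, 10 of them among the 19 of the reported test and 1 of them of Gly-CCC, while calls over all 1832 sequences went from 275 to 163. Of Gly-TCC, 2 were called with implied totals, effective sizes or DESeq2 and 1 with the likelihood-ratio test. Of the 9 families, 1 was called with no factor, 2 with implied totals and 1 with the tolerant class rule, all of them internal families of Gly-ACC or Gly-CCC.

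Leaving out each library gave 15 to 27 called members, 3 to 12 of Gly-CCC (3 without wild type 1 or db/db 1, 11 without db/db 3, 12 without wild type 4), 0 to 1 of Gly-TCC and 0 to 1 families. Calls over all tested sequences moved too, to 267 of 2065 and 256 of 1854 without wild type 1 and db/db 1, and to 317 of 1926 and 340 of 1969 without wild type 4 and db/db 3. Totals ranged from -0.15 to 0.044 for Gly-ACC and -0.14 to 0.24 for Gly-TCC, and families from -0.061 to 0.28 (Gly-ACC 3′), -0.33 to 0.056 (Gly-CCC 3′), -0.52 to 0.064 (Gly-TCC 5′), 0.012 to 0.41 (Gly-ACC 5′) and -0.80 to -0.37 (Gly-CCC 5′). Single 3′ fragments ranged from -0.29 to 0.38 (Gly-ACC 21 nt), -0.21 to 0.35 (22 nt), -0.29 to 0.055 (23 nt), -0.30 to 0.13 (24 nt) and -0.70 to 0.16 (Gly-CCC 16 nt). The cause of these changes was not tested. None of the 14 shares and lengths passed with filtered sequences only or without the most abundant sequence of each name. No paired analysis was possible because no label links a wild type library to a db/db library. The numbers 1 to 4 used here only name the libraries of a genotype in the order listed. Low counts limit the precision of the sequences short of CCA.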
